A study of Mus musculus with 8 samples.

Results

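A set of 3 stretches of the mouse genome holds many H3K4me3 regions in wild-type testis and far fewer in testis without H3f3b. They are described here as the proximal block of chromosome 14 (0 to 9 Mb), the middle block of chromosome 14 (41 to 45 Mb) and the chromosome 5 block (9.5 to 16 Mb), all in mm9 coordinates. Region lists of 4 H3K4me3 libraries were merged where regions overlapped or touched, and a merged region belongs to a block if it lies wholly inside it. This gave 88 regions in the proximal block, 74 in the middle block and 38 in the chromosome 5 block, 200 of 16519 in all. No region crossed a bound. The libraries came from whole testis of adult C57BL/6 mice, either wild type at H3f3b (H3f3b WT/WT; WT 66 and WT 74) or without the gene (H3f3b null; KO 67 and KO 73). The numbers are those of the labels, which do not say whether each is a separate animal. The 4 input libraries of the series were not analysed here.

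The blocks were chosen by the loss of regions from the KO lists, so the presence and covered length of regions in WT and KO chose the members. These values are given as descriptions, and no test was made of a difference between the genotypes or between a block and its chromosome. A region found in both WT libraries and in neither KO library is called lost. Where 2 lengths of one genotype are given, WT 66 comes before WT 74 and KO 67 before KO 73. The testis is a mixture of cells, and a smaller number of cells that carry the mark cannot be told apart from less mark per cell. Gene positions in mm9 were not used, so neither the tissue's marker genes nor H3f3b itself was examined.

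H3K4me3 is a mark of active and poised promoters. H3f3b is 1 of a pair of mouse genes for H3.3, the H3 variant laid down outside DNA replication, which takes a large part in the chromatin changes of spermatogenesis. Parts of mouse chromosomes 5 and 14 are known for gene families in many copies. Speer genes, on chromosome 5, encode testis-expressed proteins rich in glutamic acid. Takusan genes, on chromosome 14, are a family known from work on synapses. Proteins of both families resemble the amino-terminal part of Dlg5, a scaffold protein of cell junctions.

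The promoters of a pair of Speer genes show how alike the copies can be. In the RefSeq gene table for GRCm38.p6, another build, 11 of 15 Speer genes are on chromosome 5 and 10 of the 15 have a promoter sequence. Speer8-ps1, Speer4cos, Speer9-ps1, Speer5-ps1 and Speer6-ps1 are the others. The 250 bases before the start of Speer4e and of Speer4c are shown from 5′ to 3′ along the gene, with the 4 bases that differ between them in capitals.
Speer4e: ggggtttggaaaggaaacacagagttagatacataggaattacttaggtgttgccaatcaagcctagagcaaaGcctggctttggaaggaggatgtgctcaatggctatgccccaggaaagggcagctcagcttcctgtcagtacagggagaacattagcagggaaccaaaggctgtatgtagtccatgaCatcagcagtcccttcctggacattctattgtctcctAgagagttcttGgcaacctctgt
Speer4c: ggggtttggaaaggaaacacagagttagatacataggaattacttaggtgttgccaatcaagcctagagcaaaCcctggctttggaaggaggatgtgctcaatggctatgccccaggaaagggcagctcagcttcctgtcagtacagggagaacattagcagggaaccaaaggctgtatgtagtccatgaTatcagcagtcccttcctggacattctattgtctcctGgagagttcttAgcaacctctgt
Among the 7 Speer4 promoters, aligned bases were identical at 90.7% to 98.4% over the 21 pairs, with 194 to 250 bases aligned. A run of 25 bases stood in all 7 promoters:
Speer4 run: gaggatgtgctcaatggctatgccc

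Many neighbouring genes also shared promoter sequence. The 20 nearest neighbours of 2610042L04Rik, the gene named takusan in the table, on chromosome 14 all carried names of predicted genes (Gm and a number). Of the 13 with a promoter in the table, 11 shared at least 50% of their promoter's 31-base words with the promoter of another gene, on either strand. The same held for 8 of 9 such neighbours of Speer1 and 7 of 12 of Speer4e on chromosome 5. None of the 9 such neighbours of Dlg5, also on chromosome 14, did so, and over all 27025 genes with a promoter the share was 12.8%. Because of the difference in build, none of these genes was placed on a region, and the copy number of the blocks themselves was not measured. Reads from near-identical copies cannot be assigned to 1 copy with certainty, and how the authors treated them is not given in the sources used. The position of any single region in the blocks is uncertain to that extent.

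In each block the number of H3K4me3 regions was lower in both null libraries than in both wild-type libraries. In the proximal block of chromosome 14, WT 66 held 67 regions, WT 74 held 68, KO 67 held 6 and KO 73 held 21. In the middle block the numbers were 66, 61, 11 and 22, and in the chromosome 5 block 32, 37, 10 and 18, in the same order. The wild-type libraries lay close together, while KO 73 held more regions than KO 67 in each block. The means were 67.5 ± 0.707 in WT and 13.5 ± 10.6 in KO for the proximal block, 63.5 ± 3.54 and 16.5 ± 7.78 for the middle block, and 34.5 ± 3.54 and 14 ± 5.66 for chromosome 5 (SD, n = 2 each). Mean KO number over mean WT number was 0.20, 0.26 and 0.41 in the 3 blocks. It was 0.727 on the rest of chromosome 14, 0.772 on the rest of chromosome 5 and 0.805 over everything outside the blocks.

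**Figure D1:**
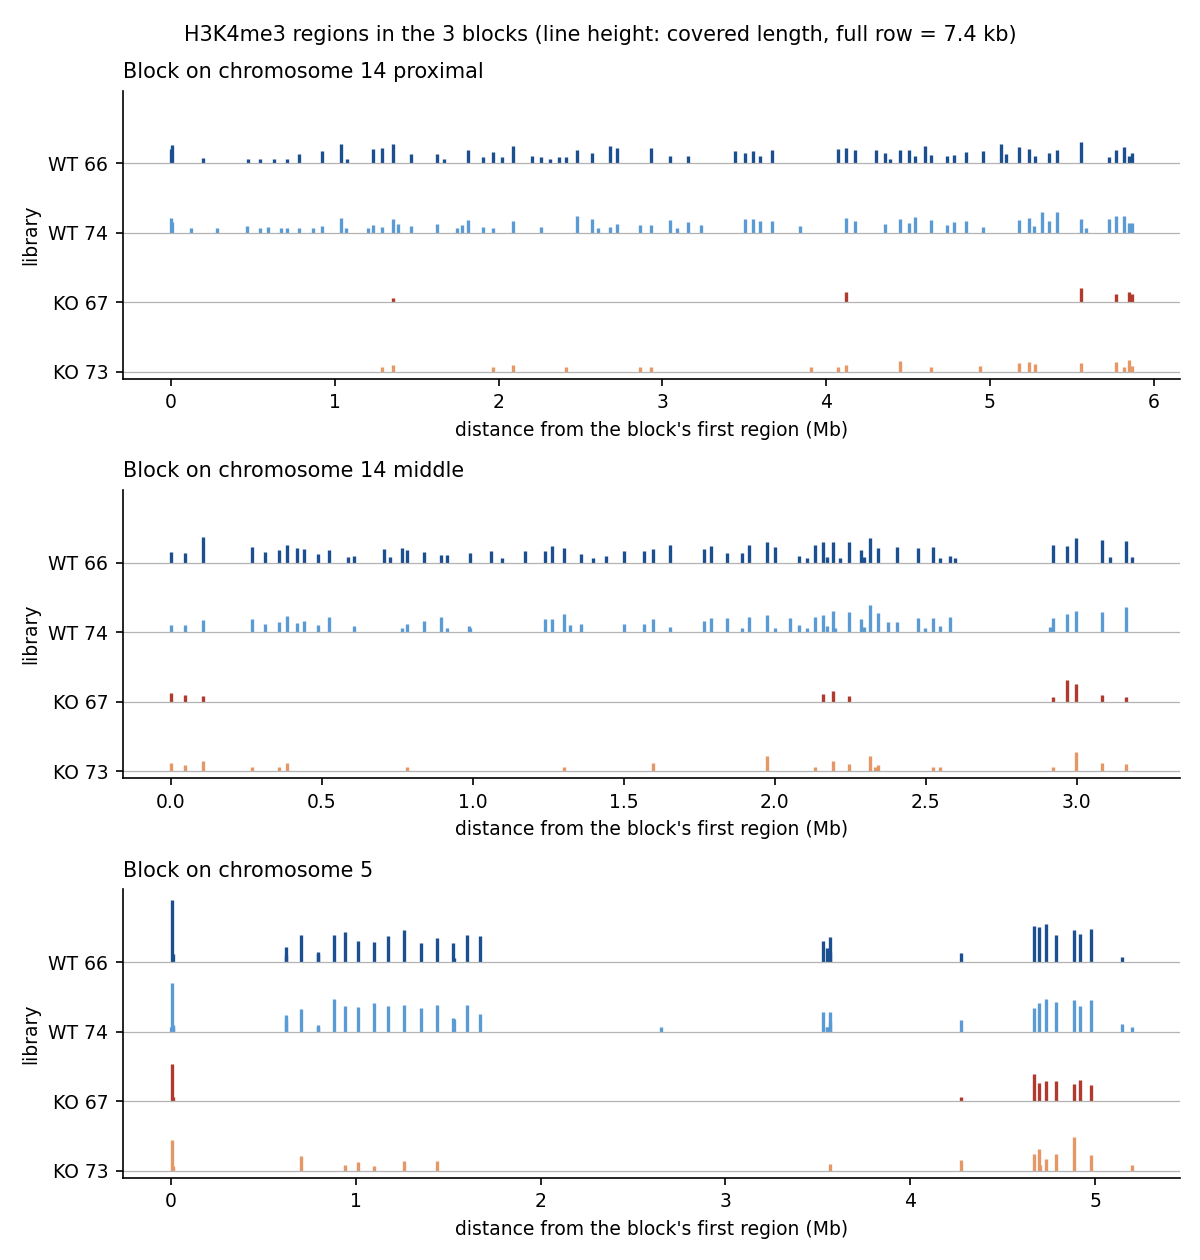
Regions of the 4 libraries along each block, by distance from the block's first region (Mb). Each vertical line is a region, and its height is the length covered in that library. The rows of KO 67 and KO 73 are sparse where those of WT 66 and WT 74 are filled, except at the ends of the middle block, at the right end of the proximal block and in the left and right groups of the chromosome 5 block.

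The covered length differed by more than the number. Wild-type libraries covered 75.5 ± 5.51 kb of the proximal block, 83.7 ± 9.73 kb of the middle block and 77.3 ± 2.09 kb of the chromosome 5 block (SD, n = 2). The null libraries covered 10.6 ± 6.56, 14.7 ± 5.29 and 22.7 ± 3.75 kb. KO over WT came to 0.141, 0.176 and 0.293, against 0.671 and 0.692 on the rest of chromosomes 14 and 5. As a share of a library's merged regions, the proximal block made up 0.48% of WT 66, 0.473% of WT 74, 0.0579% of KO 67 and 0.171% of KO 73. Both null lists thus held a smaller share of their regions in this block than the wild-type lists did.

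Most regions of the chromosome 14 blocks that both wild-type libraries held were lost. In the proximal block 34 of 49 were lost, 69.4% (95% exact binomial interval 54.6 to 81.7), in the middle block 31 of 54, 57.4% (43.2 to 70.8), and in the chromosome 5 block 15 of 32, 46.9% (29.1 to 65.3). Over all 12560 regions of both WT libraries, 11.8% were lost. Since loss chose the blocks, nothing is read from the difference. On the rest of chromosome 14 the share was 17.1% (13.8 to 20.9) and on the rest of chromosome 5 it was 14.8% (12.5 to 17.4). The intervals cover counting error only.

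KO 73 held most of what remained. Of the regions of both WT libraries, KO 67 held 6 of 49, 11 of 54 and 10 of 32 in the 3 blocks, against 79.5% over all such regions, and KO 73 held 15, 21 and 16, against 86.2%. KO 67 held none of the proximal block's both-WT regions that KO 73 lacked, 2 in the middle block and 1 on chromosome 5, whereas KO 73 held 9, 12 and 7 that KO 67 lacked. With KO 73 left out, so that a region counts as lost if KO 67 lacks it, the shares rose to 87.8%, 79.6% and 68.8%. Scores below 100 lay on equal steps within each list, to within 0.055. If 1 step is 1 tag, KO 67 had 4.46 times the depth of KO 73, WT 66 had 1.66 times and WT 74 had 1.04 times. KO 67 also had the shortest list, with 10502 regions. The part that depth plays in these counts was not tested.

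Regions found in all 4 libraries numbered 6 of 49 in the proximal block, 9 of 54 in the middle block and 9 of 32 on chromosome 5. Over all regions of both WT libraries, 77.6% were in all 4 lists. No region of any block was gained, that is, held by both KO and neither WT library, among the 24 members that both KO libraries held. The share gained over all regions of both KO libraries was 0.589%. Of the 200 regions, 4 had no wild-type library at all, beside 729 of 16519 over all regions. All 4 were in KO 73 alone, with 2 in the proximal block and 1 in each of the others.

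**Figure D2:**
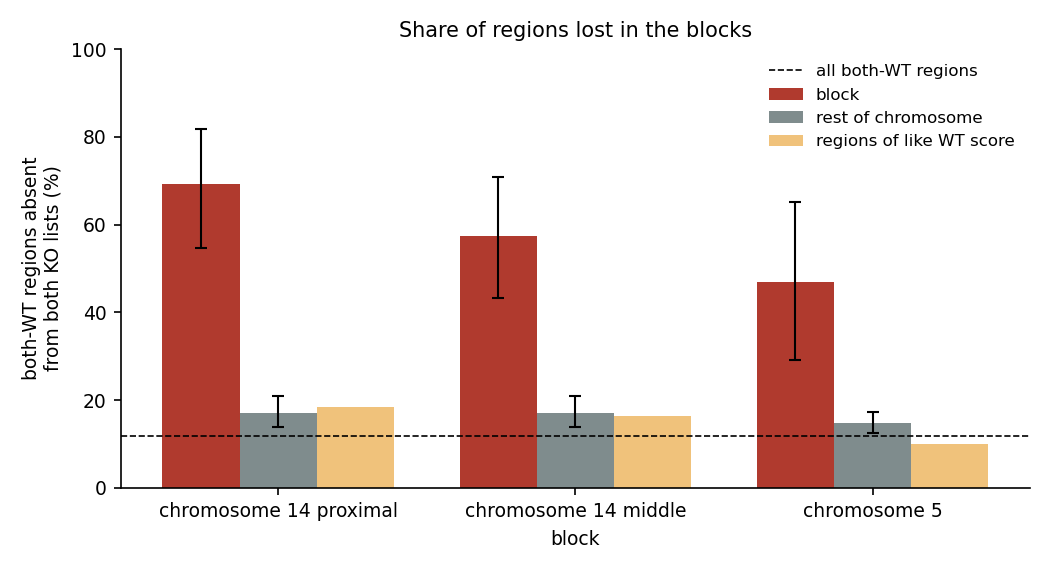
Share of regions of both WT libraries that were absent from both KO lists (%), for each block, for the rest of its chromosome and as the share found in regions of like WT score outside the blocks. Error bars are 95% exact binomial intervals, and the dashed line is the 11.8% over all such regions. The block bars stand at 69.4%, 57.4% and 46.9%.

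Regions with low scores were lost more often outside the blocks too, and the chromosome 14 blocks had low scores. The score is the authors' own value for each region, with no stated scale. It is read here relative to its own list, apart from the steps used above for relative depth. In the proximal block, regions of both WT libraries had a median score percentile of 35.3 in WT 66 and 37.9 in WT 74. In the middle block the medians were 40.2 and 40.9, and on the rest of chromosome 14 they were 55.0 and 55.5. The chromosome 5 block stood higher, at 59.7 and 62.0, against 56.4 and 57.8 on the rest of its chromosome.

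The loss is set beside that of regions of like score as a description only, since loss chose the blocks. Regions outside the blocks were put into 20 bins of their mean WT score percentile, and each block region was given the share lost in its bin. The mean of these shares was 18.5% in the proximal block, 16.4% in the middle block and 10.1% on chromosome 5, beside the 69.4%, 57.4% and 46.9% lost. It depended on the libraries used. Without WT 66 it was 32.5%, 26.7% and 20.4%, beside 76.5%, 62.3% and 53.8% lost, and without KO 73 it was 32.0%, 28.4% and 17.5%, beside 87.8%, 79.6% and 68.8% lost. With the wild-type covered length in place of the score, and all 4 libraries, the shares were 12.5%, 12.5% and 7.94%. Between the 25th and 50th score percentile, 25 of 34 regions were lost in the proximal block, 19 of 27 in the middle block and 5 of 9 on chromosome 5, while outside the blocks 15.2% of 3332 were. Between the 50th and 75th percentile the numbers were 1 of 6, 2 of 13 and 5 of 10, against 2.70% of 3560 outside. All 11 block regions above the 75th percentile were found in a KO library, and outside the blocks 0.342% of 3512 such regions were lost.

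The share lost was also counted in 1 Mb windows. The place of the block windows among all windows follows from how the blocks were chosen and is no result. Of the 1 Mb windows, 412 held at least 10 regions of both WT libraries, and 6 of these lay in a block. The 4 windows with the largest share lost were all block windows. They were 42 to 43 Mb on chromosome 14 with 11 of 15 lost, 43 to 44 Mb with 15 of 21, 7 to 8 Mb with 7 of 10, and 11 to 12 Mb on chromosome 5 with 9 of 14. Next came a window on chromosome 14 at 34 to 35 Mb and one on chromosome 5 at 38 to 39 Mb, outside the blocks, each with 6 of 11 lost. The median share lost over windows outside the blocks was 8.33%.

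**Figure D3:**
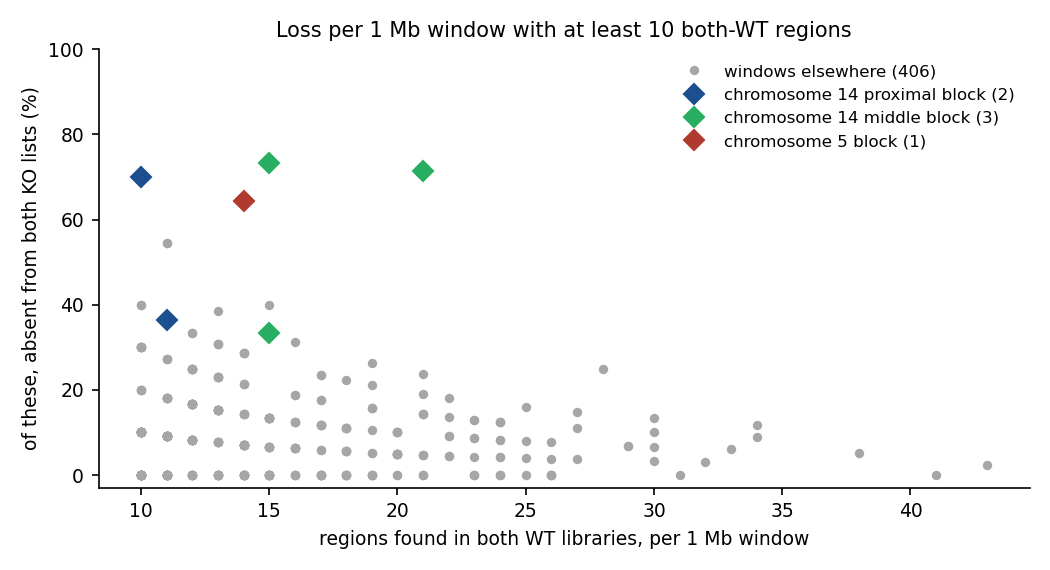
Each point is a 1 Mb window with at least 10 regions of both WT libraries (x axis), placed by the share of these absent from both KO lists (y axis, %). Diamonds are block windows, of which 4 lie above every other window, and 2 grey windows coincide at 54.5%.

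Within the proximal block the loss was not even. No region lay before chr14:3064809-3066799, the first member, which had wild-type lengths of 1562 and 1613 bp and was lost. In the windows from 3 to 4 Mb and from 6 to 7 Mb all 6 regions of both WT libraries in each window were lost, and KO 67 held 0 regions there while KO 73 held 0 and 1. In the last window, from 8 to 9 Mb, 4 of 11 were lost, and KO 67 and KO 73 held 4 and 9 regions against 14 in each WT library. The last member, chr14:8930683-8931836, had wild-type lengths of 1080 and 1091 bp and null lengths of 911 and 639 bp. The first region beyond the bound, chr14:9004366-9006508, was present in all 4 libraries, at 2098 and 1864 bp in the wild type against 1908 and 1851 bp in the null. Among the 6 windows of the block with members, the last one had the smallest share lost.

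Ranked by the smaller of the 2 wild-type lengths, as in every block here, the 3 widest lost regions of the proximal block were above the median width of 1376 and 1229 bp that its both-WT regions had in WT 66 and WT 74. At chr14:4101289-4103368 the wild-type lengths were 2080 and 1562 bp. At chr14:5546445-5548278 the lengths were 1458 and 1801 bp. By score the strongest lost regions were again chr14:4101289-4103368, then chr14:8474501-8476714 with 1442 and 2214 bp, the largest mean wild-type length among the lost, and chr14:4879637-4881030 with 1388 and 1372 bp. None of these had any region in KO 67 or KO 73. By the same ranking, the 3 widest regions found in all 4 libraries were as follows. At chr14:7183442-7185089 they were 1621 and 1568 bp, with null lengths of 1064 and 762 bp. At chr14:4420334-4422405 they were 2072 and 1504 bp, with null lengths of 501 and 737 bp, where 501 bp is the narrowest region in any list. At chr14:8623309-8625583 they were 2275 and 1458 bp, with null lengths of 1522 and 898 bp, so that the genotypes overlapped. At chr14:8834795-8836624, wider by its mean than the first of these, the lengths were 1443 and 1830 bp in the wild type and 922 and 1099 bp in the null. A region near the right end, chr14:8912596-8913844, covered more in KO 67 and KO 73 (1067 and 1223 bp) than in WT 66 (764 bp), and KO 67 fell just short of WT 74 (1069 bp).

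The wild-type libraries also differed from each other more often in the proximal block than elsewhere on the chromosome. Of its 67 regions in WT 66, 18 (26.9%) were missing from WT 74, and of the 68 in WT 74, 19 (27.9%) were missing from WT 66. On the rest of chromosome 14 these shares were 13.0% and 16.4%. In the middle block they were 18.2% and 11.5%. In the chromosome 5 block 0 of 32 and 5 of 37 were missing.

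The middle block lost a larger share of its regions in its centre than at its ends. Of its both-WT regions, 11 of 15 were lost from 42 to 43 Mb and 15 of 21 from 43 to 44 Mb, but 0 of 3 from 41 to 42 Mb and 5 of 15 from 44 to 45 Mb. The first member, chr14:41779147-41780412, had wild-type lengths of 1214 and 760 bp and null lengths of 902 and 912 bp between them. The nearest region before the block, chr14:40895117-40895757, was itself lost, at 501 and 641 bp in the wild type. At the other end, 8 members from 44691184 to 44962119 included 5 regions of both WT libraries, of which 0 were lost and 4 were in all 4 lists. The strongest of these, chr14:44774836-44777508, measured 2673 and 2257 bp in the wild type, with null lengths of 1885 and 2072 bp. Also in this group, chr14:44942164-44944983 had 2348 and 2695 bp in the wild type but 501 and 812 bp in the null. Over each library's own regions in the group, the median length was 1947 and 2053.5 bp in the wild type. It was 767 and 863 bp in the null, so regions that stayed in the lists were mostly narrower. The last member, chr14:44961451-44962119, was a 669 bp region of WT 66 alone, and the first region after the block, chr14:45052314-45054740, was in all 4 libraries at 1968 and 2427 bp in the wild type and 1897 and 1883 bp in the null.

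Losses in the middle block included well-covered regions. At chr14:43692371-43694335 the wild-type lengths were 1965 and 1630 bp, at chr14:43566474-43568235 they were 1762 and 1575 bp, and at chr14:44253352-44254924 they were 1552 and 1522 bp, with no region in either KO library. By score, chr14:42301158-42302923 (1372 and 1605 bp) and chr14:43042543-43044390 (1848 and 1424 bp) were also among the strongest lost. All 9 of the block's both-WT regions with a mean WT length from 2000 to 3000 bp kept a region in a KO library. Few regions of this length were lost outside the blocks: 4.71% of 85 on the rest of chromosome 14 and 3.94% of all 2333. In the chromosome 5 block, however, 6 of 11 regions of this length were lost. At chr14:43970245-43972659, inside the depleted centre, wild-type lengths of 2272 and 2239 bp stood beside null lengths of 1197 and 1094 bp. An exception to the lower KO coverage was chr14:44747048-44749423, with wild-type lengths of 1828 and 1918 bp, which measured 2313 bp in KO 67 but had no region in KO 73.

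Regions of the middle block lay closer together than those of the rest of the chromosome. Midpoints of neighbouring both-WT regions lay a median of 45.5 kb apart (quartiles 25.7 and 62.6 kb, 53 gaps), and 79.2% of the gaps were between 20 and 100 kb. On the rest of chromosome 14 the median was 76.4 kb (30.5 and 176 kb, 453 gaps), with 42.4% between 20 and 100 kb. The shortest gap of the block was 10.3 kb and the longest 341 kb, just before the group at its right end. In the proximal block the median gap was 99.8 kb (56.7 and 157 kb, 48 gaps). Over single libraries, which include regions that the other WT library lacks, it was 67.4 kb in WT 66 and 72.1 kb in WT 74, close to the 70.0 and 68.3 kb on the rest of the chromosome. Its shortest gap, the only 1 of 48 under 5 kb, was the 4.27 kb between its first members, and its longest, 540 kb, came directly after them.

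**Figure D4:**
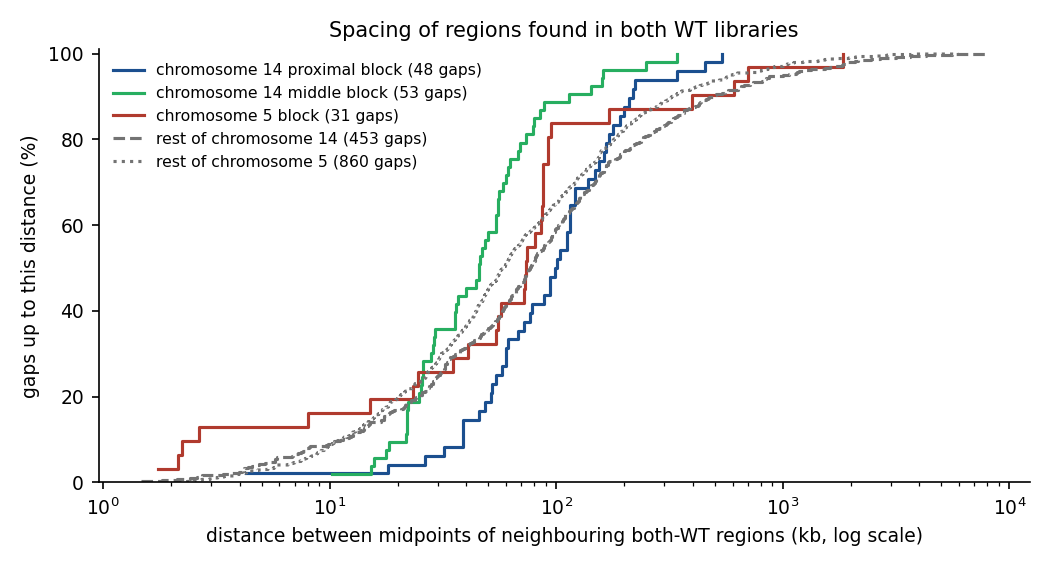
Share of gaps (y axis, %) up to a given distance between midpoints of neighbouring regions of both WT libraries (x axis, kb, log scale), for each block and for the rest of chromosomes 14 and 5. The curve of the middle block of chromosome 14 rises steeply around its median of 45.5 kb, and that of chromosome 5 has a step between 70 and 100 kb.

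The chromosome 5 block was made of separate groups that differed in loss. Its gaps ran from 1.74 to 1851 kb, with a median of 73.6 kb. Cutting it where neighbouring members lay over 300 kb apart gave 6 stretches, a division made after the values were seen. A group near the left end (10242295 to 10255288) kept both of its both-WT regions. The second stretch, from 10864126 to 11918999, lost 11 of 17. The third held 1 narrow region of WT 74. The fourth, from 13767417 to 13812123, lost 3 of 4, the fifth kept its single region, and the sixth, from 14911646 to 15441455, lost 1 of 8.

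The second stretch was a regular array of broad regions. Joining both-WT regions under 5 kb apart gave 14 loci over 1.05 Mb, with 13 gaps from 55.2 to 92.5 kb and a mean of 80.9 ± 10.5 kb (SD over gaps). No other place in these lists had as long a run of loci spaced 50 to 100 kb apart. The next longest, of 8 loci on chromosome 17 from 17088169 to 17512548, lost 0 of 8. Covered length per locus ran from 1929 to 3461 bp in WT 66 (median 2728.5) and from 1260 to 3520 bp in WT 74 (median 2791.5). KO 67 had no region at any of the 14 loci. KO 73 had a region at 6 of them, from 501 to 1562 bp. Their scores ran from 20.3, the smallest in its list, to 44.9.

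Loci that neither KO library held included broad ones. At chr5:11125909-11129429 the wild-type lengths were 2885 and 3520 bp, and neither KO library had a region. The same held at chr5:11843709-11846633 with 2925 and 2831 bp and at chr5:11414490-11417435 with 2844 and 2760 bp. These were at once the widest and the highest-scoring lost regions of the block. The locus widest in KO 73, with 1562 bp there, chr5:10945887-10948921, had wild-type lengths of 2911 and 2462 bp. The median locus had a score percentile of 59.6 in WT 66 and 62.0 in WT 74, within the range of score in which 2.70% of regions outside the blocks were lost.

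**Figure D5:**
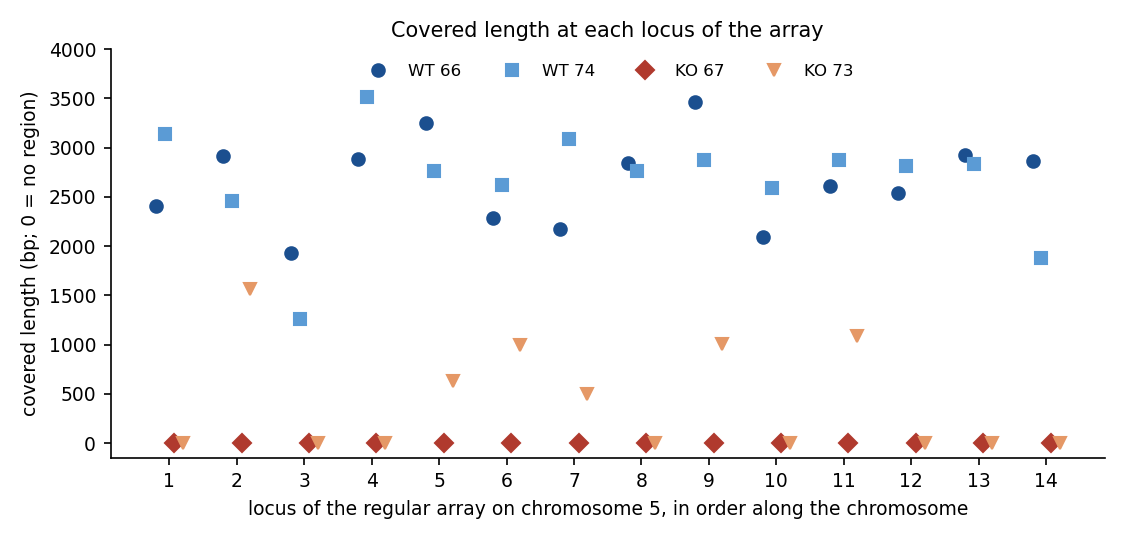
Covered length (bp) at the 14 loci of the regular array on chromosome 5 in each library, in order along the chromosome; 0 marks a locus with no region. KO 67 is at 0 at every locus and KO 73 at 8, while WT 66 and WT 74 lie between 1260 and 3520 bp.

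In the sixth stretch of the same block, 7 broad regions scored above the list median in WT 66, WT 74 and KO 67 and were kept in KO 67. They lay from 14911646 to 15220363, each in both WT libraries and in KO 67, and 6 of them in KO 73. Their WT lengths ran from 2900 to 4073 bp in WT 66 and from 2539 to 3469 bp in WT 74, and from 1702 to 2939 bp in KO 67. The strongest, chr5:15124682-15128483, ranked 2nd of 14078 by score in WT 66, 18th of 14551 in WT 74, 3rd of 10502 in KO 67 and 40th of 12497 in KO 73. The other 5 that KO 73 held ranked from 4866 to 8579 in its list. Its wild-type lengths of 3474 and 3419 bp lay between the null lengths, 1841 and 3663 bp. The region that KO 73 lacked, chr5:15159905-15162982, had wild-type lengths of 3078 and 2817 bp and measured 2286 bp in KO 67.

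In those 7 regions the score relative to its own list differed within each genotype. Divided by the median score of the list, it ran from 3.77 to 15.4 in WT 66 and from 2.00 to 7.13 in WT 74, and WT 66 was higher in all 7. It ran from 2.31 to 9.58 in KO 67, and KO 67 was higher than KO 73 in all 6 that both held. KO 73 had values from 0.593 to 4.81. If 1 score step is 1 tag, the higher library of each genotype was also the deeper one (1.66 against 1.04 in WT, 4.46 against 1 in KO), and the part of depth in this was not tested.

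The widest member of all was at the left end of the chromosome 5 block. At chr5:10243481-10250146, the wild-type lengths were 6666 and 5181 bp and the null lengths 4030 and 3286 bp. The genotypes did not overlap there. At chr5:14975575-14979647 wild-type lengths of 4073 and 3469 bp stood over null lengths of 2129 and 1256 bp, and at chr5:15216798-15220363 the lengths were 3566 and 3421 bp over 1702 and 1746 bp. The block's outermost members, chr5:10242295-10242795 and chr5:15440728-15441455, were narrow, with 501 bp in WT 74, none in WT 66 and, for the latter, 636 bp in KO 73. Outside the block, the nearest region before it, chr5:9265901-9266587, was in WT 74 alone at 687 bp, and the nearest after it, chr5:16878697-16881444, was in all 4 libraries at 2731 and 2630 bp in the wild type and 1956 and 1355 bp in the null. In KO 73 broad regions of the block were often in pieces: 5 of its 12 merged regions of at least 3000 bp held more than 1 listed region, against 158 of 1196 outside the blocks. This was not so in the other null library: such regions were 0 of 8 in KO 67, beside 0 of 15 in WT 66 and 2 of 15 in WT 74.

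Members that stayed in all 4 libraries were mostly narrower in the null testes. Both KO lengths were below both WT lengths in 4 of 6 such members in the proximal block, 8 of 9 in the middle block and 6 of 9 on chromosome 5, and above them in none. Over all 9742 regions of all 4 lists, the KO lengths lay below in 47.4%. The median log2 difference in covered length, KO minus WT, was -0.67, -1.21 and -0.68, against -0.18 over all. In KO 73, 9 of 21 regions of the proximal block and 9 of 22 of the middle block had the narrowest width of 501 bp, 42.9% and 40.9%, compared with 8.63% on the rest of chromosome 14. In the chromosome 5 block KO 73 had 2 of 18, 11.1%, close to the 9.07% on the rest of chromosome 5. KO 67 had 1 of 6, 2 of 11 and 2 of 10 in the 3 blocks, against 6.41% and 4.65% on the rest of chromosomes 14 and 5. In WT 74 the shares were 20.6%, 13.1% and 18.9%, against 13.6% and 10.4%. In WT 66 they were 11.9%, 9.09% and 3.1%, against 12.0% and 9.31%.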

How the data were processed

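Chromatin immunoprecipitation with sequencing for H3K4me3 was made on 4 testis libraries, 2 per genotype. The authors aligned reads to mm9 with Bowtie and processed them with HOMER, per the submitters' processing notes. For versions, settings, read filters and the use of the inputs, the entry is the same: not given in the sources used here. Each deposited list gives regions with a score per region, used as deposited. The score was read as a percentile or rank of its own list or divided by the list's median. Its steps were used for relative depth, and a few scores are given as listed. Depth in reads is not given.

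Lists were merged where regions overlapped or touched (at least 1 bp of overlap or shared ends), and a library held a merged region if any of its regions fell in it. The covered length is the summed length of those regions. Positions count from 1. Intervals are exact binomial (Clopper-Pearson, 95%). Merging and calling were tested on simulated lists. Python 3.11.15, NumPy 2.4.6, pandas 2.3.3, SciPy 1.17.1 and matplotlib 3.10.9 were used.

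The members and lists were chosen with earlier results of these data known. Regions named were, per block, the 3 widest lost (by the smaller WT length), the 3 highest-scoring lost and the 3 widest in all 4 libraries. The first and last member and the nearest region outside each bound were also named. The shortest and longest gaps are given by their length, without naming every region beside them. The array, the stretches and other regions named were chosen after their values were seen. Alternatives were lists of 1 length, a minimum score, wider merging, at least 50% coverage, single pairs of libraries and leaving out each library.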

Additional observations from a re-analysis of the deposited data

How the results depend on the processing

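Under every alternative run, the lost share of each block stayed above that of the rest of its chromosome, by at least 24.4 percentage points. Loss in these same lists chose the blocks, so this was set by the choice and nothing is read from it. Of 243 alternative values for 24 results, 187 were counted as unchanged. For most results this meant a move smaller than the spread between replicates, or a value within the interval. For numbers of regions per library it meant a fixed limit of fold change. This limit was wider than the spread between replicates for the WT numbers, but narrower for the KO numbers in the proximal block. By that limit 44.5 regions per WT library in the middle block, with low scores left out, counted as unchanged from 63.5. Leaving out regions below the 25th score percentile of each list gave, in the proximal block, 41 regions per WT and 4.0 per KO library, a lost share 66.4 percentage points above the rest of the chromosome, a median spacing of 150 kb and a median WT length of 1414 bp. In the middle block it gave a lost share of 75.7%, which was 62.8 points above the rest, 6.0 regions per KO library, a KO to WT ratio of 0.135, a spacing of 55.7 kb and a length of 1636 bp, and on chromosome 5 a spacing of 75.8 kb and a length of 2774 bp. Lists of 1 length gave 38.0 regions per WT and 8.0 per KO library in the proximal block and 42.0 per WT library in the middle block, with spacings of 121, 55.4 and 79.1 kb and lengths of 1513, 1715 and 2802 bp in the 3 blocks. Requiring at least 50% of a region to be covered gave 8.0, 5.5 and 7.5 regions per KO library, a spacing of 115 kb in the proximal block, a lost share of 85.1% (64.1 points above the rest) and a ratio of 0.0917 in the middle block, and a ratio of 0.227, a spacing of 79.1 kb and a length of 2687 bp on chromosome 5. Merging across gaps of up to 1000 bp gave spacings of 93.4 kb in the proximal block and 81.3 kb on chromosome 5, where the length was 2789 bp. With WT 74 and KO 73 alone, the proximal block had 21 regions in KO, a spacing of 72.2 kb, a length of 962 bp and an expected lost share of 35.4%, the middle block a spacing of 35.6 kb, and chromosome 5 a spacing of 64.5 kb and a length of 1835 bp. Leaving out each library in turn gave lost shares from 69.4% to 87.8%, 61.1% to 79.6% and 48.5% to 68.8% in the 3 blocks. The share expected from WT score ran from 21.7% to 32.5%, 19.3% to 28.4% and 11.8% to 20.4%. The KO number ran from 6.0 (without KO 73) to 21 (without KO 67), 11.0 to 22.0 and 10.0 to 18.0. The spacing ran from 67.4 to 99.8 kb, 35.6 to 45.5 kb and 64.5 to 73.6 kb, and the median WT length from 962 to 1239 bp, 1216 to 1351 bp and 1835 to 2613 bp. With a WT library left out, a region no longer had to be in both, so more regions entered; dropping low scores and cutting lists to 1 length left fewer. For the other alternatives the cause was not tested. The expectation from WT covered length was added after the data were seen. No paired analysis was possible because the WT and KO libraries share no replicate number and no test was made. With 2 libraries per genotype and no read depth in the files, a region absent from a list may lie just under the authors' threshold.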

Other observations

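A run with a like pattern lay on the X chromosome, outside the blocks, and was picked after its values were seen. From 51652079 to 52114930 it held 6 loci of both WT libraries with gaps from 90.9 to 97.8 kb, a mean of 92.4 ± 3.02 kb (SD over 5 gaps). Of the 6 regions, 5 were lost. KO 67 held 0 of them and KO 73 held 1. Among 26 runs of at least 5 loci spaced 50 to 100 kb apart in these lists, this run and the array on chromosome 5 were the only ones in which KO 67 held no region.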
